A study of Mus musculus with 18 samples.

Results

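In mouse embryonic stem cells that lack Mettl3, 8 genes carried more H3K27ac over 1 H3K4me3-rich window than Control cells did: Dmtn, Foxn3, Hexa, Atp1b1, Zzz3, Cdk6, Tns1 and Aox2. They were selected on that H3K27ac difference, out of 21883 protein-coding genes of the annotation, so the H3K27ac values below describe the choice and carry no test. H3K4me3 was measured in other libraries, and those values are tested; whether H3K4me3 also played a part in the choice is not known. The question asked of each gene was whether H3K4me3 already lay where H3K27ac was gained.

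The groups were 2 Mettl3 knockout lines, KO1 and KO2, and a Mettl3 Control, all mouse embryonic stem cells of C57BL/6 background grown in serum with LIF, the GSK3 inhibitor CHIR99021 and the MEK inhibitor PD0325901. The Mettl3 protein is the active subunit of the complex that methylates adenosines of RNA at N6. Each group had 2 libraries for each mark, 12 peak lists in all; each genotype is 1 line. The labels do not state that the 2 libraries were separate cultures, and the error behind each p-value is therefore that between libraries, possibly technical alone. Per library, the lists held 39048 to 65398 H3K27ac peaks in the knockouts and 29973 to 32957 in Control, and 66483 to 72303 H3K4me3 peaks in the knockouts and 81608 to 83644 in Control. The read totals are unknown. All values below are peak coverage (a length, or a percent of a window, under called peaks), not signal height, and in a pool of cells a mark in more cells and more mark per cell cannot be told apart.

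H3K4me3 is laid down by the SET1 and MLL methyltransferases around transcription starts, mostly at CpG-rich promoters, and is found at promoters of both active and poised genes in embryonic stem cells. H3K27ac is written by p300 and CBP, marks active promoters and enhancers, and is laid on the same lysine that Polycomb methylates. A promoter that already has H3K4me3 can therefore stand with or without H3K27ac.

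Embryonic stem cell identity and the targeted gene were checked first. Of 11 embryonic stem cell markers, 10 in KO1, 11 in KO2 and 11 in Control had H3K4me3 in both libraries, and 10 in each group had H3K27ac. Of 10 fibroblast or feeder markers, 4 in KO1, 4 in KO2 and 3 in Control had H3K4me3 in both libraries, and 0 in any group had H3K27ac, the mean coverage of which was at most 0.47% in any library. Of 5 primitive endoderm markers, 2 in KO1, 2 in KO2 and 4 in Control had H3K4me3 in both libraries, and 0 in any group had H3K27ac. Of 5 blood or endothelial markers, 4 in KO1, 4 in KO2 and 2 in Control had H3K4me3 in both libraries. Of these 5, Ptprc, Cd34, Kdr and Tal1 had 0% H3K27ac in every library. Pecam1 had H3K27ac over 6.67% to 30.9% of its window in the 4 knockout libraries, and 0% and 10.1% in Control. The part of Pecam1 in the results was not tested. H3K4me3 covered 37.9% and 41.5% of the Mettl3 window in KO1, 48.0% and 44.1% in KO2, and 65.4% and 68.4% in Control; a promoter can keep its marks when coding sequence is removed, so this does not check the deletion.

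For each gene the window was the 4 kb (2 kb on each side of its centre) inside the gene with the most H3K4me3, since the gene table gives no strand. Among 12395 genes that also have an annotated transcription start in the promoter table, the start lay inside the window for 79.8%, at a median of 861 bp from its centre, and over 5 kb away for 13.5%. The 8 genes were placed unlike that majority. Of the 7 with an annotated start, Cdk6 alone held it inside the window, 989 bp from the centre. The Atp1b1 start lay 2056 bp from the centre, just outside the window. The start was 7.89 kb away in Zzz3, 10.3 kb in Hexa, 32.5 kb in Tns1, 89.8 kb in Aox2 and 107.7 kb in Foxn3. Dmtn has no start in the table, and its window was centred 10464 bp inside the nearer gene end. An annotated start thus lay in the window or at its edge for Cdk6 and Atp1b1, and the windows of the others are not called promoters here.

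**Figure D1:**
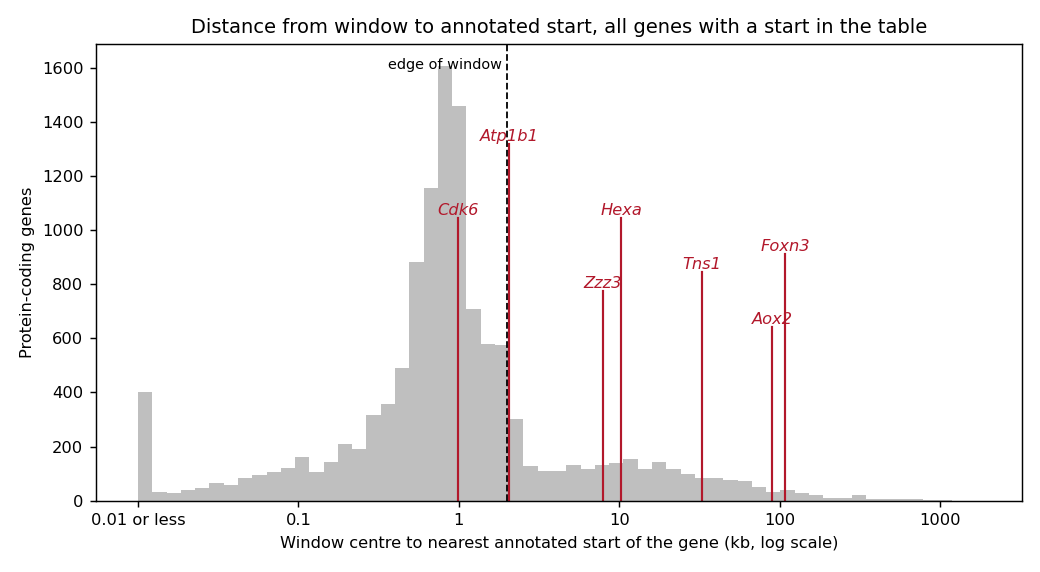
Distance from the window centre to the nearest annotated start of the same gene (kb, log scale) for the 12395 protein-coding genes with both, as a histogram of genes. Red lines mark the 7 listed genes with an annotated start; Cdk6 sits left of the dashed window edge, Atp1b1 on it, and the other 5 lie to its right, Foxn3 at 107.7 kb.

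The annotated starts differed in CpG content and in marks. The 300 bases from 250 before to 50 after the start are shown for 6 starts, with every CG pair in capitals, because CpG-rich starts are the usual sites of H3K4me3. Cdk6 and Atp1b1 are the 2 of the 8 genes with a start in the window or at its edge, Tns1 has H3K4me3 and no H3K27ac, Aox2 and Foxn3 have neither mark, and 3300002A11Rik is a long noncoding RNA whose start lies inside the Foxn3 window. All are given 5′ to 3′ from RefSeq on GRCm38.p6, the assembly of mm10.
Cdk6: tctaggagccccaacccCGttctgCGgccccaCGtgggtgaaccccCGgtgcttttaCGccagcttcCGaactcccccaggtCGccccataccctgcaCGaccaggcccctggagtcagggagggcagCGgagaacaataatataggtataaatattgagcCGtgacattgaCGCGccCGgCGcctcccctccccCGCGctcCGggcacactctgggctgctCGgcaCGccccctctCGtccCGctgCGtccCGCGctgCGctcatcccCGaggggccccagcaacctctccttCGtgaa
Atp1b1: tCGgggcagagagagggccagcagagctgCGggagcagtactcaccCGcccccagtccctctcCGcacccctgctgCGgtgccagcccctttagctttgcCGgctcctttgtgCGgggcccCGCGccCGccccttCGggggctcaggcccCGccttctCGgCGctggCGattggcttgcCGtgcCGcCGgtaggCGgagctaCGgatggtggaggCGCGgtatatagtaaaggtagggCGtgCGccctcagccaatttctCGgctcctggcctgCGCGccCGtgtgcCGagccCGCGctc
Tns1: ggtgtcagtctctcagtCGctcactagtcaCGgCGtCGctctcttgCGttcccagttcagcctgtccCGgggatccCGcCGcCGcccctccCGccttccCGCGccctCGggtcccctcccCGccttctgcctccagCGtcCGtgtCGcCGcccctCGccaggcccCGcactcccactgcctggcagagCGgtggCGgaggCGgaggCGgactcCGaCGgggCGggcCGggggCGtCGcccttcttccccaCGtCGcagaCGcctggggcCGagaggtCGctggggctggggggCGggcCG
Aox2: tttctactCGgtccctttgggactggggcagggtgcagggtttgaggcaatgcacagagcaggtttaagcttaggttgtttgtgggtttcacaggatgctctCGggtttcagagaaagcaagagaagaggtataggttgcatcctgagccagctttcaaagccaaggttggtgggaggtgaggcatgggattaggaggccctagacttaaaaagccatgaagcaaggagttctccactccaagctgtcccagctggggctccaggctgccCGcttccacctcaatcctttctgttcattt
Foxn3: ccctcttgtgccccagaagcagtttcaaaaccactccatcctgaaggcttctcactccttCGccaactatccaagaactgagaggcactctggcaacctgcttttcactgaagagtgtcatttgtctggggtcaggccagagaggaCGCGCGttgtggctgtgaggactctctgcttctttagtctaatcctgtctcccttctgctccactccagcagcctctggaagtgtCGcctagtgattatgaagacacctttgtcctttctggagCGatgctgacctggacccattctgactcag
3300002A11Rik: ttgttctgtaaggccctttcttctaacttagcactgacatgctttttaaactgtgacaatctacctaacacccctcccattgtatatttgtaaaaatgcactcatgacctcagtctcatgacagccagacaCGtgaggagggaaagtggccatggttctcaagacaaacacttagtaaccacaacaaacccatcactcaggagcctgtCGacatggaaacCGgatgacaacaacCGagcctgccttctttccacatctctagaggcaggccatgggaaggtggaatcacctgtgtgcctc

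These are, in the same order, chr5:3343643-3343942 (plus strand), chr1:164458306-164458605 (minus strand), chr1:74124499-74124798 (minus strand), chr1:58278076-58278375 (plus strand), chr12:99450025-99450324 (minus strand) and chr12:99340781-99341080 (plus strand). The Tns1 start held 37 CG pairs, Atp1b1 31, and Cdk6 27, against a median of 7 over 32851 starts in the table. Foxn3 held 6, 3300002A11Rik 4 and Aox2 3. H3K4me3 peaks covered all 300 bases in every library at Cdk6, at least 152 bases in every library at Atp1b1 and at least 220 at Tns1. They covered 0 bases in every library at Aox2 and Foxn3. At 3300002A11Rik, also poor in CG pairs, they covered 65 and 0 bases in KO1, 300 and 195 in KO2, and 110 and 0 in Control. At Zzz3 (30 CG pairs, not shown) H3K4me3 covered all 300 bases in every library, and at Hexa (10 CG pairs, not shown) between 0 and 261. Of the core promoter motifs searched on both strands, GGGCGG was in 35.7% of all starts and in Atp1b1, Tns1, Zzz3 and Hexa, CCAAT was in 37.4% and in Atp1b1 and Hexa, and TATAAA was in 13.6% and in Cdk6.

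Over a 4-kb window centred on the annotated start, H3K27ac was absent (0%) in all 6 libraries at Foxn3, Tns1 and Aox2. At Tns1 that window had H3K4me3 over 21.2% and 23.5% in KO1, 25.6% and 19.3% in KO2, and 26.0% and 25.8% in Control. At Foxn3 and Aox2 it had no H3K4me3 peak in any library. The H3K27ac gain recorded under these 3 gene names thus lay elsewhere in the gene. The table gives 1 start for each of them, and other starts were not used; Foxn3 runs on past its listed start to 99563667. At that outer end the region chr12:99563251-99563577 had H3K27ac over 0 bp in both KO1 libraries, 316 and 287 bp in KO2, and 0 bp in both Control libraries, and H3K4me3 over all 327 bp in every library. At Cdk6 the start-centred window had H3K27ac over 32.5% and 35.2% in KO1, 42.7% and 55.0% in KO2, and 0% and 3.75% in Control, and at Atp1b1 over 29.3% and 25.5%, 73.1% and 80.1%, and 14.5% and 13.6% in the same order of groups. In both, every knockout library was above both Control libraries.

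By their H3K4me3 in Control the 8 windows fell into 2 kinds. In Dmtn, Atp1b1, Zzz3 and Cdk6, H3K4me3 already filled the window, with 94.8% to 100% covered in the Control libraries. Coverage cannot exceed 100%, so tests of these windows had almost no room to find a rise. In Foxn3, Hexa, Tns1 and Aox2 it was patchy in Control, from 5.02% to 54.7%. This split was made after seeing the values and is a description. Where the window fell depended on the groups only for the patchy kind. Placed by the Control H3K4me3 lists alone, the windows of Dmtn and Atp1b1 did not move, and those of Cdk6 and Zzz3 moved by 100 and 200 bp. The Aox2 window moved by 9100 bp, Hexa by 9500 bp, Tns1 by 31900 bp and Foxn3 by 50500 bp.

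**Figure D2:**
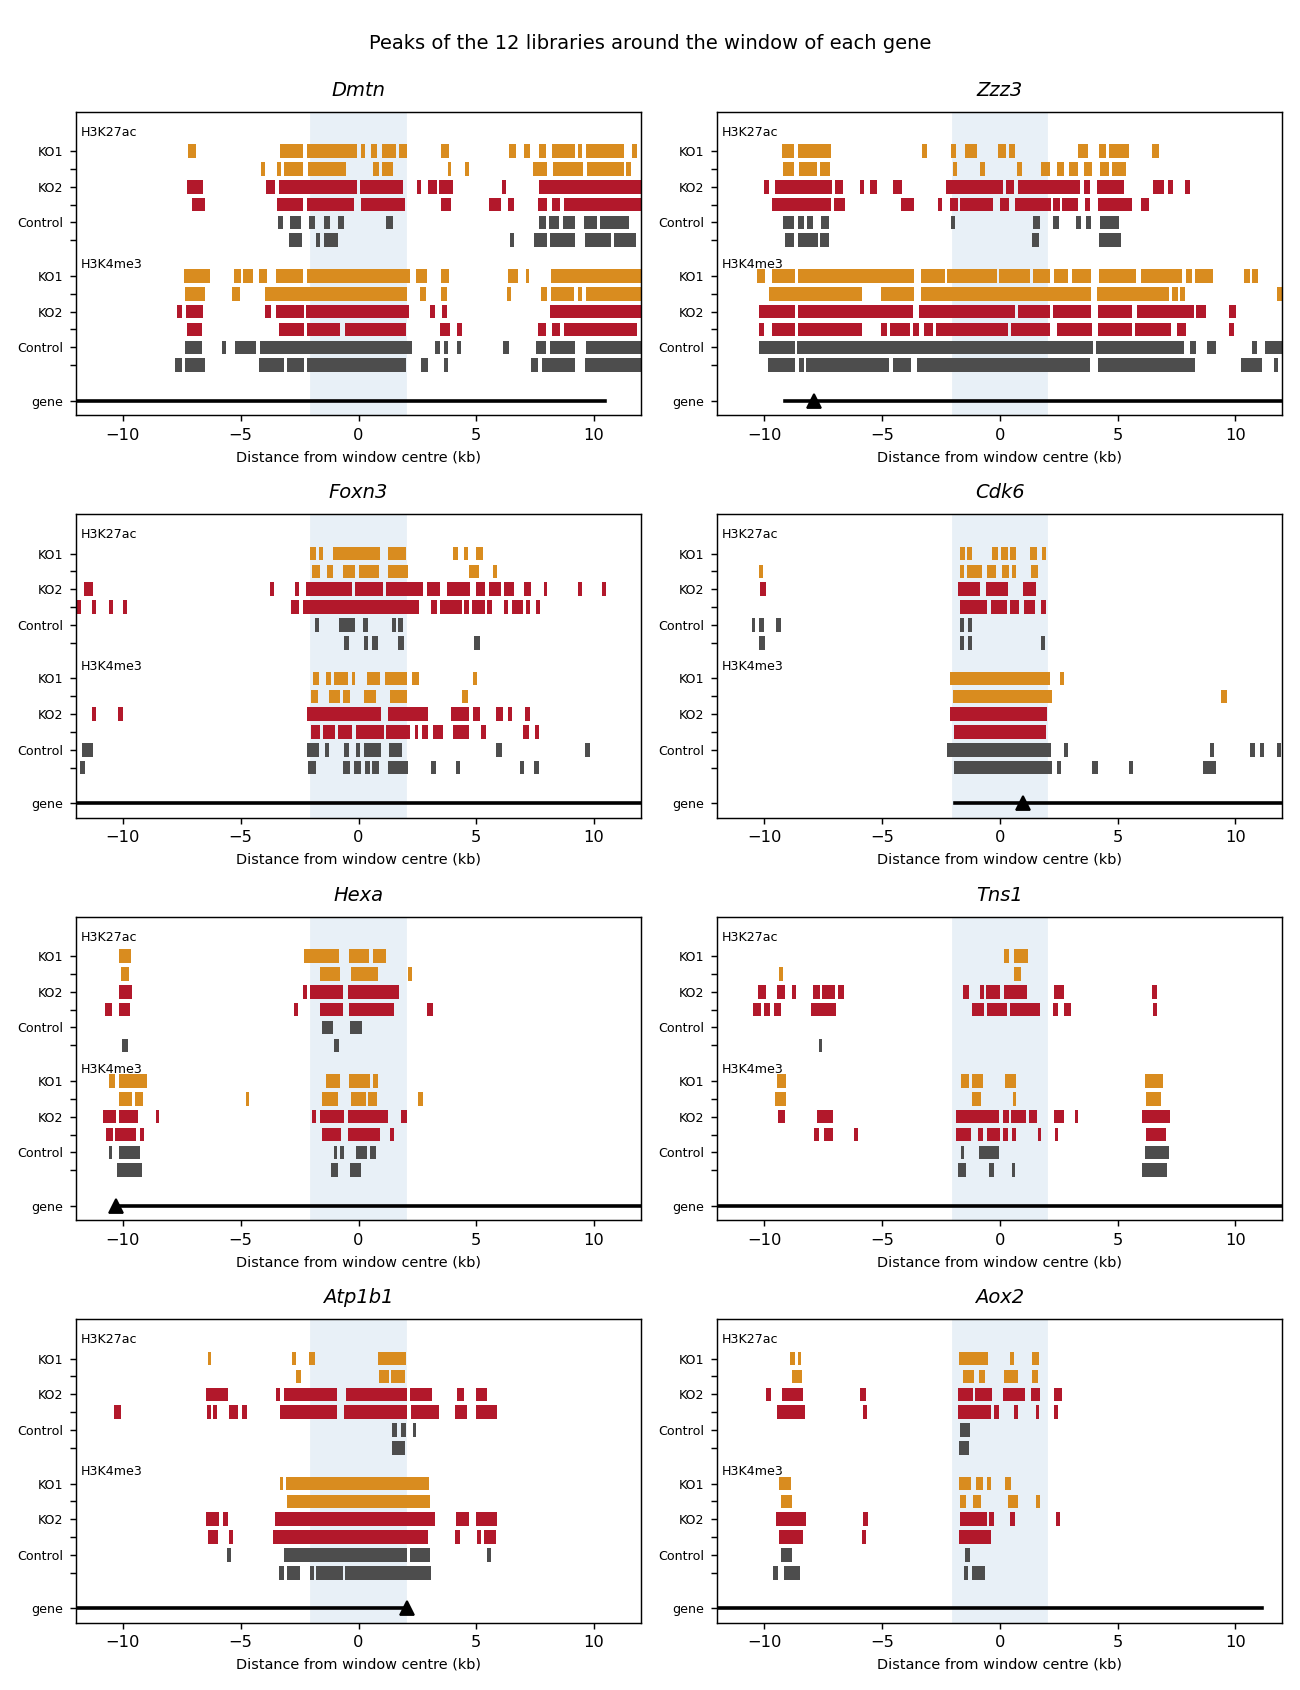
Peaks of the 12 libraries within 12 kb of the window centre of each gene, against distance from that centre (kb); bars are called peaks, 2 rows per group (KO1, KO2, Control), H3K27ac above H3K4me3, the shaded band is the window, the black line the gene and the triangle its annotated start. In the shaded band the Control H3K4me3 rows are filled, at 94.8% or more, in Dmtn, Atp1b1, Zzz3 and Cdk6, and only partly filled in Foxn3, Hexa, Tns1 and Aox2.

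Among the filled domains, Cdk6 encodes the cyclin D partner kinase that phosphorylates Rb in G1. Its window, chr5:3340904-3344904, also overlaps the lncRNA Gm36470 on the minus strand. The annotated start of Gm36470, at 3342252, lies inside the window, nearer its centre than the Cdk6 start. H3K27ac covered 42.0% and 49.2% of it in KO1, 62.2% and 72.1% in KO2, and 8.55% and 13.2% in Control. The Control libraries held it as 2 or 3 peaks of at most 194 bp. H3K4me3 was 1 unbroken peak of 3894 to 4432 bp in each of the 6 libraries, covering 97.3% to 100%. The H3K4me3 difference was −0.25 ± 1.74 percentage points (limma, SE, adjusted p = 0.946). The region with most of the window's H3K27ac, chr5:3341113-3343289, holds the Gm36470 start. H3K27ac covered 988 and 1516 bp of it in KO1, 1906 and 1857 bp in KO2, and 342 and 378 bp in Control. All 2177 bp of it had H3K4me3 in every library. The region chr5:3343880-3344532, which holds the annotated Cdk6 start, had H3K27ac in all 4 knockout libraries and in no Control library. It lay over 281 and 304 bp in KO1 and 583 and 436 bp in KO2. All 653 bp of that region had H3K4me3 in every library. Of the 300 bases printed for the start, H3K27ac covered 0 in both KO1 libraries, 63 and 75 in KO2, and 0 in both Control libraries.

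Atp1b1 encodes the β1 subunit of the sodium pump, which carries the catalytic α subunit to the plasma membrane. Its window, chr1:164454299-164458299, had H3K27ac over 32.5% and 25.5% in KO1, 91.2% and 92.8% in KO2, and 10.4% and 13.6% in Control. KO2 thus covered nearly the whole window, and KO1 lay between KO2 and Control without overlap. H3K4me3 covered 100% in all 4 knockout libraries, and 100% and 94.8% in the Control libraries, a difference of 2.59 ± 2.01 points (limma adjusted p = 0.447). The longest H3K27ac peak at the window was 1172 and 598 bp long in KO1, 2594 and 2686 bp in KO2, and 217 and 543 bp in Control. Of the 300 bases printed for the start, H3K27ac covered 1 and 0 in KO1, 166 and 146 in KO2, and 10 and 0 in Control. A second region, chr1:164452781-164455404, had H3K27ac over 392 and 210 bp in KO1, 2480 and 2420 bp in KO2, and none in Control. There H3K4me3 already covered 87.1% and 71.7% of the region in the Control libraries.

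Dmtn encodes dematin, an actin-bundling protein of the red cell membrane skeleton. Its window, chr14:70623584-70627584, had H3K27ac over 78.7% and 53.2% in KO1, 94.4% and 91.8% in KO2, and 23.7% and 19.9% in Control. H3K4me3 covered 100% in 5 libraries and 95.1% in a KO2 library (difference −1.23 ± 1.98 points, limma adjusted p = 0.733). The nearer end of the gene, beside Fgf17 and the lncRNA Gm38605, already had broad H3K27ac: of the region chr14:70632970-70637634, H3K27ac covered 3330 and 3637 bp in KO1, 4367 and 4051 bp in KO2, and 3050 and 3643 bp in Control. There both KO1 libraries lay below the second Control library, so the groups overlapped at the gene end and not in the window. A short region inside the gene, chr14:70629019-70629579, had H3K27ac in all 4 knockout libraries and no Control library.

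Zzz3 encodes a ZZ-type zinc finger protein that reads histone H3 tails within the ATAC acetyltransferase complex. Its window, chr3:152402573-152406573, had H3K27ac over 30.1% and 23.0% in KO1, 93.1% and 83.9% in KO2, and 10.4% and 8.25% in Control. H3K4me3 covered 95.4% and 100% in KO1, 96.5% and 97.0% in KO2, and 100% in both Control libraries (−2.79 ± 1.99 points, limma adjusted p = 0.404). The window lies within 1 H3K4me3 peak in each Control library, of 12531 and 7355 bp, and the longer one also holds the annotated start 7.89 kb away. At the start itself H3K27ac was present in every library, and over the start-centred window it covered 48.3% and 41.7% in KO1, 71.3% and 74.6% in KO2, and 32.0% and 40.2% in Control.

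Among the patchy domains, Hexa encodes the α subunit of lysosomal β-hexosaminidase, which breaks down GM2 ganglioside. Its window, chr9:59547840-59551840, had H3K27ac over 64.4% and 50.9% in KO1, 86.8% and 73.0% in KO2, and 24.1% and 5.37% in Control. H3K4me3 covered 42.9% and 42.2% in KO1, 77.5% and 58.4% in KO2, and 25.5% and 18.9% in Control. Both marks were higher in every knockout library than in either Control library, in a window placed in part by the knockout H3K4me3 lists. The annotated start, 10.3 kb away, was richer in H3K4me3 than this window in Control: there the mark covered 36.6% and 21.9% in KO1, 38.8% and 33.5% in KO2, and 26.7% and 27.4% in Control. The difference at the start was 5.64 points (limma adjusted p = 0.474), and H3K27ac of the start-centred window was 12.4% and 8.70% in KO1, 13.7% and 18.9% in KO2, and 0% and 7.22% in Control.

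Foxn3 encodes a forkhead transcription factor known as a repressor. Its window, chr12:99340381-99344381, had H3K27ac over 78.5% and 67.7% in KO1, 93.7% and 100% in KO2, and 34.7% and 22.1% in Control. H3K4me3 covered 67.1% and 55.6% in KO1, 93.3% and 86.0% in KO2, and 54.7% and 49.7% in Control. The lower KO1 library lay less than 1 percentage point above the higher Control library, so the H3K4me3 gap rested mainly on KO2. The window holds the start of the lncRNA 3300002A11Rik, whose sequence is printed above. There H3K27ac covered 94 and 39 of 300 bases in KO1, all 300 in both KO2 libraries, and 0 in both Control libraries.

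Aox2 encodes an aldehyde oxidase, an enzyme that needs the molybdenum cofactor. Its window, chr1:58366126-58370126, overlaps the minus-strand lncRNA Gm39644. H3K27ac covered 42.2% and 39.5% in KO1, 66.6% and 49.1% in KO2, and 9.67% and 11.2% in Control. H3K4me3 covered 32.7% and 30.6% in KO1, 39.0% and 33.7% in KO2, and 5.02% and 17.6% in Control. All 4 knockout libraries were above both Control libraries for both marks, in a window placed in part by the knockout H3K4me3 lists. In the window placed by Control alone, H3K4me3 covered 12.5% and 12.4% in KO1, 31.7% and 25.5% in KO2, and 11.4% and 21.5% in Control. There KO1 and Control overlapped in H3K4me3. H3K27ac there covered 8.22% and 11.1% in KO1, 28.4% and 29.6% in KO2, and 0% in both Control libraries. Aox2 also had the most regions with H3K27ac in every knockout library and no Control library, 3 of its 8. In the regions chr1:58368248-58369211 and chr1:58369468-58369813, no Control library had H3K4me3 either. H3K4me3 covered 274 and 426 bp of the first region in KO1, and 217 and 0 bp in KO2.

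Tns1 encodes tensin-1, which links integrins to actin at focal adhesions. Its window, chr1:74090032-74094032, had H3K27ac over 20.5% and 7.10% in KO1, 50.3% and 65.9% in KO2, and 0% in both Control libraries. H3K4me3 covered 31.7% and 13.6% in KO1, 74.4% and 49.4% in KO2, and 24.9% and 17.7% in Control. KO1 and Control overlapped. A second region, chr1:74110595-74111418, had H3K27ac over 318 and 637 bp in KO1, 728 and 757 bp in KO2, and none in Control.

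**Figure D3:**
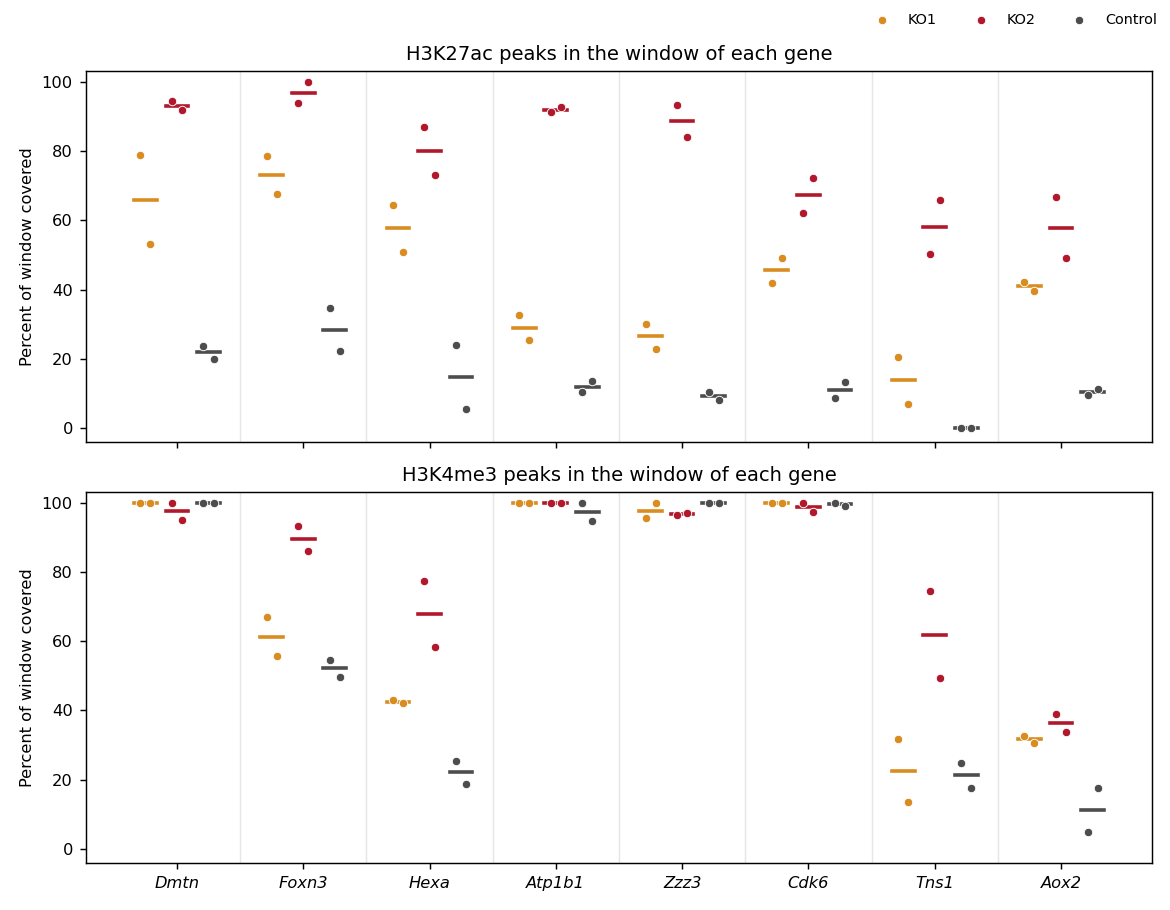
Percent of the 4-kb window under H3K27ac peaks (top) and H3K4me3 peaks (bottom) for the 8 genes; dots are libraries and bars the means of 2, for KO1, KO2 and Control from left to right. H3K27ac separates knockout from Control libraries in all 8 genes, while H3K4me3 is at 94.8% or more everywhere in Dmtn, Atp1b1, Zzz3 and Cdk6.

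Taking the H3K4me3 windows over all 14112 genes tested, 1.47% were higher in the knockouts and 9.01% lower (limma, Benjamini-Hochberg adjusted p under 0.05), with a median difference of −3.16 points. Of the 8 genes, 3 passed as higher, Hexa by 33.1 ± 5.60 points (adjusted p = 0.0194), Aox2 by 22.7 ± 3.82 (0.0190) and Foxn3 by 23.3 ± 4.97 (0.0333), and 0 as lower. In Dmtn, Atp1b1, Zzz3 and Cdk6 the Control libraries already had 94.8% to 100% covered. A rise could hardly be called there, so their tests do not show H3K4me3 to be unchanged. Tns1 was higher by 21.0 ± 7.69 points at an unadjusted p under 0.05 (adjusted p = 0.126), beside 4.66% of all genes higher and 24.3% lower at that level. By line, Hexa, Aox2 and Foxn3 did not pass in KO1 minus Control (limma adjusted p = 0.142, 0.0664 and 0.432). They passed in KO2 minus Control (0.0107, 0.0184 and 0.0132). Tns1 also passed in KO2 minus Control (40.6 points, limma adjusted p = 0.0309) and not in KO1 minus Control (1.32 points, 0.967). Of the 14112 genes, 46 were higher and 269 lower in KO1, and 298 and 1406 in KO2. These windows were placed by the same H3K4me3 lists that were then tested. The 3 calls, and those by line, therefore hold for windows chosen in part where the knockouts are high, and are not read further. In windows placed by Control alone, an alternative added after seeing the data that leans to Control in turn, none of the 8 passed. There the difference was 5.64 points at Hexa (limma adjusted p = 0.41), 4.09 at Aox2 (0.458), −3.49 at Tns1 (0.41) and −11.4 at Foxn3 (0.134). Foxn3 was thus of the other sign, with 52.5% and 52.8% in KO1, 61.2% and 53.3% in KO2, and 63.3% and 69.3% in Control. In that Foxn3 window H3K27ac covered 29.4% and 21.4% in KO1, 50.1% and 49.7% in KO2, and 18.1% and 22.9% in Control, so the groups overlapped. The 3 calls also ended in a 2-kb window (Hexa 0.0691, Aox2 0.0893 and Foxn3 0.143). Without any 1 of the 6 libraries the Foxn3 and Aox2 calls were lost (adjusted p from 0.0718 to 0.171 and from 0.0601 to 0.12), the Hexa call was lost without a KO1 or a Control library (0.0795 to 0.128), and peaks with −log10 q of at least 5 ended the Aox2 call (0.0516).

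The H3K27ac values that chose the genes can be set beside the rest of the genome. Every knockout library lay above both Control libraries in all 8 genes, and in 38.7% of the 10175 genes with H3K27ac at the window. The mean gain of both lines was 57.7 points in Dmtn, 56.6 in Foxn3, 54.0 in Hexa, 48.5 in Atp1b1, 48.2 in Zzz3, 45.5 in Cdk6, 38.9 in Aox2 and 36.0 in Tns1, against a median gain of 10.3 points over all genes. They ranked between 4th and 147th of 10175, and the genes ranked above Dmtn were Pkd1l2, Pim3 and Lyzl4 at 71.9, 65.6 and 64.3 points. The knockout lists also held more H3K27ac peaks in all. With the strongest peaks kept in equal number in every list, 7 of the 8 had all knockout libraries above Control, beside 31.8% of all genes, and Zzz3 did not. Both KO2 libraries lay above both KO1 libraries in all 8 genes, and in 91.2% of all genes, so that order is common to the genome; after quantile normalization it held in 3 of the 8 and in 24.6% of all genes.

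The peaks were then followed one by one over each gene and 10 kb on each side. The 8 loci held 144 H3K27ac regions, formed by joining overlapping peaks of the 6 lists, of 77139 in the genome. Of these, 8 were found in all 4 knockout libraries and in no Control library, 5.56%, against 3.54% of all regions. They were 3 in Aox2, 2 in Tns1 and 1 each in Dmtn, Atp1b1 and Cdk6, and there was none in Foxn3, Hexa or Zzz3. H3K4me3 touched 6 of the 8 in both Control libraries, beside 52.6% of such regions genome-wide and 61.1% of those in a protein-coding locus. It covered at least 50% of the region in both Control libraries in 2 of the 8, beside 40.3% and 48.6%. Of the 144, 58 were in 1 KO2 library only (40.3%, against 30.2% of all regions) and 32 in both KO2 libraries only (22.2%, against 14.8%). A further 16 were in 1 Control library (11.1%, against 13.6%) and 15 in both (10.4%, against 23.3%), with or without a knockout library. The median length was 216 bp for regions of 1 KO2 library and 1719 bp for those in both Control libraries.

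H3K4me3 over those regions gave no call for the average of the knockout lines. Of the 144 regions, 89 could be tested, 11 were fully covered by H3K4me3 in all 6 libraries and 39 had no H3K4me3 in any. None of the 89 passed (limma, lowest adjusted p = 0.108), beside 0.0671% higher and 0.44% lower of all 50705 regions tested. At an unadjusted p under 0.05, 14 were higher and 2 lower, beside 8.37% and 6.57% of all regions. The median difference was 9.14 points over the 89 and 0.447 points over all regions. For KO2 minus Control, 4 of the 89 were higher and 0 lower (limma, lowest adjusted p = 0.0361), beside 1.4% and 0.978% of all regions, and for KO1 minus Control none passed (lowest adjusted p = 0.148), beside 0.0513% and 0.239%. The 4 lay 1 each in the loci of Foxn3 (chr12:99349422-99349683), Hexa (chr9:59531371-59532523), Aox2 (chr1:58362200-58362482) and Tns1 (chr1:74084020-74085069). The Hexa one lies outside Hexa, within the neighbouring gene Tmem202, and the Foxn3 one also lies within the lncRNA 3300002A11Rik. In KO2, H3K4me3 covered 781 and 832 bp of the Hexa one and 219 and 198 bp of the Foxn3 one. In KO2 it also covered 180 and 174 bp of the Aox2 one and 657 and 623 bp of the Tns1 one. All 4 had 0 bp in every KO1 and Control library. KO1 and Control thus showed no spread there, and KO2 alone gave the mean coverage that let these regions be tested. The 4 calls are therefore not read further.

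A count by base, chosen after seeing the data, does not depend on where regions are joined. In the 8 loci 5698 bp had H3K27ac in all 4 knockout libraries and in no Control library, and 50.6% of them had H3K4me3 in both Control libraries, against 51.2% of such bases on all chromosomes. That pooled share was close to the one on all chromosomes, which also count bases outside gene loci. No share by base was taken over protein-coding loci alone. One by one, H3K4me3 was already present in both Control libraries at 100% of these bases in Atp1b1, Zzz3 and Cdk6, at 64.0% in Dmtn and 60.4% in Foxn3. Dmtn, with a filled window, and Foxn3, with a patchy one, were thus side by side. It was present at 24.4% in Tns1, 10.4% in Hexa and 0.756% in Aox2. Bases gained in both KO2 libraries alone were more numerous, 21241 bp, of which 41.0% had H3K4me3 in both Control libraries, against 48.0% on all chromosomes. In Dmtn, Zzz3 and Cdk6 that share was 91.8%, 95.2% and 93.3%, and in Hexa 0.245%.

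**Figure D4:**
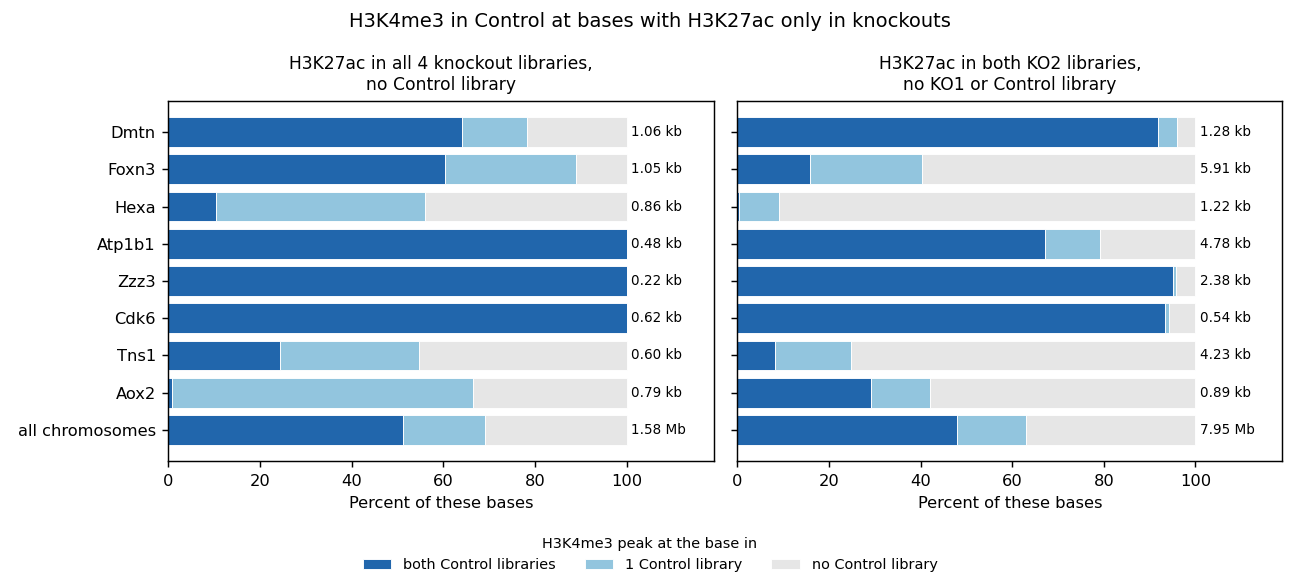
Percent of bases with H3K27ac in all 4 knockout libraries and no Control library (left), or in both KO2 libraries alone (right), split by how many Control libraries had an H3K4me3 peak there, for each gene and all chromosomes; the length of these bases stands at the right of each bar. Atp1b1, Zzz3 and Cdk6 are at 100% in both Control libraries on the left, and Hexa and Aox2 at 10.4% and 0.756%.

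Over the whole loci, H3K4me3 length moved both ways while H3K27ac length was higher in every knockout library for all 8. Over 12464 loci, 3.8% were longer in the knockouts and 31.8% shorter (limma on log2 of bp plus 500, a scale that understates change of short lengths), with a median of −0.20. Quantile normalization moved that median to 0.01 and the split to 1750 longer and 1613 shorter, from 474 and 3959.

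Averaged over both lines, H3K4me3 lengthened at Aox2, Hexa and Tns1. By line, Hexa passed in both (limma adjusted p = 0.0187 in KO1 and 0.000247 in KO2). Aox2 (0.0550 in KO1 and 0.00507 in KO2) and Tns1 (0.856 and 0.0032) passed in KO2 alone. Of the 12464 loci, 227 were longer and 2531 shorter in KO1, and 690 and 3880 in KO2. Hexa had 3.18 and 2.93 kb in KO1, 5.49 and 4.51 kb in KO2, and 2.09 and 1.85 kb in Control (log2 difference 0.84 ± 0.11, limma adjusted p = 0.00058). Aox2 had 1.96 and 2.08 kb in KO1, 3.20 and 2.54 kb in KO2, and 0.656 and 1.56 kb in Control (0.91 ± 0.20, limma adjusted p = 0.0071), a call lost without the first Control library (0.0679). Tns1 had 4.55 and 3.86 kb in KO1, 11.1 and 6.79 kb in KO2, and 4.30 and 3.73 kb in Control (0.54 ± 0.17, limma adjusted p = 0.031). In Tns1 the KO1 and Control lengths overlapped, and the call was lost without the first KO1 library (0.0642) or without either Control library (0.0955 and 0.200), with no filter on short loci (0.0631) and at −log10 q of at least 5 (0.0561).

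Averaged over both lines, H3K4me3 shortened at Cdk6 and Zzz3, the windows of which stayed filled. Against Control, Cdk6 passed in each line (limma adjusted p = 0.0154 in KO1 and 0.00153 in KO2), and Zzz3 in neither (0.0987 and 0.0587). Cdk6 had 5.40 and 5.16 kb in KO1, 4.60 and 4.46 kb in KO2, and 7.44 and 7.41 kb in Control (−0.56 ± 0.09, limma adjusted p = 0.0018; −0.22 and 0.0871 after quantile normalization). The Cdk6 locus held 5 and 5 H3K4me3 peaks in KO1, 2 and 3 in KO2, and 14 and 12 in Control, while the unbroken peak of its window had 3894 to 4221 bp in the knockouts and 4169 to 4432 bp in Control. Zzz3 had 17.7 and 16.9 kb in KO1, 18.4 and 15.7 kb in KO2, and 21.9 and 21.0 kb in Control (−0.32 ± 0.11, limma adjusted p = 0.041), lost without a KO1 or Control library (0.106 to 0.278), with equal peak numbers (0.0552), with no filter (0.0561) and at the stricter threshold (0.0678), and of the other sign after quantile normalization (0.15, adjusted p = 0.0803). Averaged in the same way, Atp1b1 (0.23, limma adjusted p = 0.0959), Foxn3 (−0.23, 0.112) and Dmtn (−0.07, 0.603) did not pass. Dmtn reached 0.37 (0.00191) after quantile normalization. By line, Atp1b1 passed as longer in KO2 (0.45, limma adjusted p = 0.0140) and not in KO1 (0.02, 0.927). It had 6.2 and 6.1 kb in KO1, 9.0 and 8.0 kb in KO2, and 6.4 and 5.7 kb in Control. Dmtn passed in neither line (limma adjusted p = 0.764 in KO1 and 0.207 in KO2).

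Foxn3 was the locus where the 2 lines parted. Its H3K4me3 length was 7.63 and 7.40 kb in KO1, 17.0 and 14.5 kb in KO2, and 13.4 and 12.3 kb in Control, so KO1 lay below Control and KO2 above it. Against Control, KO1 passed as shorter (limma adjusted p = 0.0031) and KO2 did not pass as longer (0.0987). KO2 minus KO1 was 1.02 ± 0.12 on the log2 scale (limma adjusted p = 0.0023). Over all loci 4% were longer in KO2 than in KO1. Tns1 (0.97 ± 0.20, limma adjusted p = 0.018) and Hexa (0.62 ± 0.13, limma adjusted p = 0.021) were also longer in KO2, Tns1 losing the call without the second KO1 library (0.0862) and Hexa without either KO1 library (0.0669 and 0.114), without the 10 kb on each side (0.215) and at the stricter threshold (0.072).

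**Figure D5:**
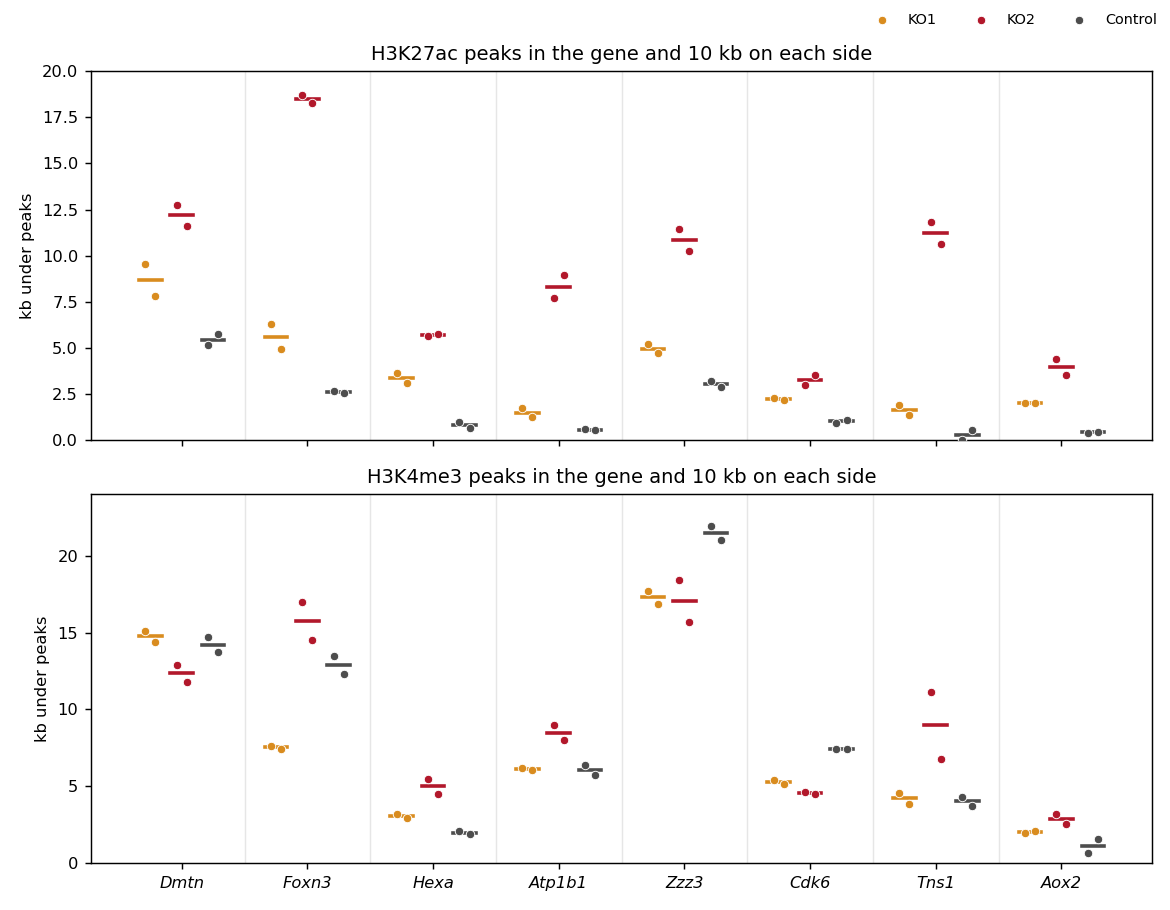
Length under H3K27ac peaks (top) and H3K4me3 peaks (bottom), in kb, over each gene and 10 kb on each side; dots are libraries and bars the means of 2, for KO1, KO2 and Control from left to right. H3K27ac is longest in KO2 in all 8 loci, while H3K4me3 is shorter than Control in both lines at Zzz3 and Cdk6 and longer in both at Hexa and Aox2.

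The H3K4me3 windows of related genes were read beside those of the 8. Of 73 genes in 8 lists, each a partner or family list of 1 of the 8, 63 were tested, and 9 were lower and 0 higher in the knockouts (limma), beside 9.01% and 1.47% of all genes. At an unadjusted p under 0.05, 27 were lower and 2 higher, beside 24.3% and 4.66%. Over whole loci, 3 of 61 were longer (Gm2a, the GM2 activator protein gene, by 0.83, and Tln2 and Atp1b2 by 0.59 each on the log2 scale; limma adjusted p of 0.00087, 0.0031 and 0.0043) and 26 shorter, beside 3.8% and 31.8% of all loci. Beside Cdk6, 2 of 10 G1 cell cycle genes fell: the related kinase Cdk4, with 50.6% and 44.4% in KO1, 38.6% and 41.4% in KO2, and 68.6% and 86.3% in Control (−33.6 points, adjusted p = 0.0197), and Rb1, their substrate (−19.0 points, adjusted p = 0.0482). Beside Tns1, 3 of 8 focal adhesion genes fell: the talin gene Tln1 (−32.0 points), the kindlin gene Fermt2 (−27.0) and the integrin gene Itgb1 (−26.8), with limma adjusted p of 0.0177, 0.0177 and 0.0251. Beside Zzz3, Yeats2 (−32.8 points, limma adjusted p = 0.0323) and Dr1 (−15.0, 0.0448) of 10 ATAC genes fell. Beside Atp1b1, the β3 subunit gene Atp1b3 fell by 21.3 points (limma adjusted p = 0.0342), the 1 of 5 sodium pump genes that passed. Beside Dmtn, Epb41l3 of 10 membrane skeleton genes fell by 22.6 points (limma adjusted p = 0.0167). No gene passed among 11 lysosomal, 4 forkhead and 5 molybdenum cofactor genes. After quantile normalization Epb41l3 and Itgb1 alone of the 9 stayed lower, and the focal adhesion gene Pxn became higher. All 9 calls were lost when a KO1 or a Control library was left out, as was every other window call.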

How the data were processed

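H3K27ac and H3K4me3 chromatin immunoprecipitation libraries (antibodies ab4729 and ab8580) of KO1, KO2 and Control cells, 2 for each, gave 12 peak lists; the 6 input samples were not analysed here. Per the labels' protocols, cells were fixed with formaldehyde and immunoprecipitated with a Diagenode kit, with spike-in chromatin and antibody from Active Motif. Per the submitters' processing notes, CASAVA, Trimmomatic 0.38, Bowtie 1.2.2 and MACS2 were used on mm10; the MACS2 version, and whether input or spike-in entered the peak calling, are not given in the sources used here. Deposited lists, 1 for each library, hold its peaks with the authors' fold enrichment (a ratio), −log10 p and −log10 q, used here within a list only. The deposited summit offset was not used. Read depth is unknown, so coverage has no counting interval.

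Genes came from RefSeq (GRCm38.p6). For each, the percent of a 4-kb window (steps of 100 bp) and the length in the gene ± 10 kb under peaks were computed with Python 3.11.15, pandas 2.3.3 and numpy 2.4.6. The windows were placed by the H3K4me3 lists of all groups, weighted equally for Control and knockouts, so their choice used the values tested; windows placed by Control alone were added after seeing the data. H3K4me3 was fitted over all genes or regions with limma 3.58.1 (R 4.3.3; lmFit, eBayes with trend), genotype as the factor, with the average of both knockout lines set against Control, two-sided, adjusted by Benjamini-Hochberg at 0.05. Entries needed a mean of 5% (lengths: 1000 bp) and values not all equal. H3K27ac of the 8 genes was not tested. The fit was checked on data with known differences. The genes, lists and measures were chosen with earlier results of these data known. All 8 genes are named, with their H3K27ac region at the window and those in all knockout and no Control libraries, and in each list the genes past the threshold, up to 4. The alternatives tried were equal numbers of peaks, −log10 q of at least 5, quantile normalization, no filter, a replicate block, each library left out, other windows, no extension, a pseudocount of 100 bp, peaks within 1000 bp joined and a region counted as found from 50% coverage.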

Additional observations from a re-analysis of the deposited data

Results flagged for a closer look

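At 3 of the 8 loci the lines themselves differed in H3K4me3 length, by the test of KO2 minus KO1 (limma): Foxn3 by 1.02, Tns1 by 0.97 and Hexa by 0.62 on the log2 scale. Foxn3 was the one where KO1 lay below Control (−0.74 ± 0.12, limma adjusted p = 0.0031) and KO2 above it (0.28 ± 0.12, 0.0987). The rise in KO2 thus did not pass. Groups of 2 libraries were not examined for single libraries that stand apart. At Tns1 the KO2 libraries had 11.1 and 6.79 kb.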

How the results depend on the processing

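Counts over all genes moved with the processing, and so did calls of the 8 genes. Window calls were kept in 4 alternatives and lost in 9 at Aox2, and kept in 7 and lost in 7 at Hexa. At Foxn3 the window call was kept in 5, lost in 7 and of the other sign in 1. The locus call was kept in 8 and lost in 5 at Tns1. At Zzz3 it was kept in 5, lost in 7 and of the other sign in 1. H3K4me3 windows called higher and lower (208 and 1272) came to 316 and 272 after quantile normalization, 138 and 659 at the stricter peak threshold, 113 and 589 on the annotated start (or, where the table has none, as for Dmtn, the gene end with more H3K4me3), and 52 and 233 in a 2-kb window; 835 were lower with equal peak numbers. Leaving out 1 library gave 0 to 102 higher and 0 to 1174 lower, with 0 without either KO1 or either Control library. Locus lengths called longer and shorter (474 and 3959) came to 1750 and 1613 after quantile normalization, 278 longer without the 10-kb extension, and 244 to 661 and 1616 to 5186 with 1 library left out. KO2 over KO1 loci (498) came to 1114, 211 and 320 after quantile normalization, without extension and at the stricter threshold, and 212 to 801 with 1 library left out. H3K27ac regions called by their H3K4me3 (34 higher, 223 lower) came to 16 and 113 after quantile normalization, 104 and 436 at the stricter threshold, 173 higher with regions merged, and 0 to 5315 and 0 to 2995 with 1 library left out.

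Same-numbered libraries did not deviate together (correlations from −0.00 to 0.03). Whether they were prepared together is not given in the labels and was not tested. With the replicate block 200 and 1187 windows and 534 and 4202 loci were called, 613 loci for KO2 over KO1, and 0 and 0 regions; Tns1 was then called higher at its window (adjusted p = 0.0353) and Atp1b1 longer in KO2 than KO1 (0.0340).

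Regions in all knockout and no Control libraries (2733, of them 8 in the 8 loci) numbered 878 and 3 with equal peak numbers, 1732 and 2 with regions merged, 4 in the loci when 50% of the region had to be covered, and 2950 to 5284 and 8 to 12 with 1 library left out. Genes with all knockout libraries above Control in H3K27ac (3933) numbered 1223 after quantile normalization and 3858 to 5954 with 1 library left out; on the annotated start 4 of 5 tested genes of the 8 did. KO2 above KO1 (9282) held in 2367 genes, 3 of the 8, after quantile normalization, and in 5 of 5 on the annotated start.

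Of 457 values of named genes and regions under alternatives, 388 kept direction and side of the threshold, 42 lost the call, 7 gained it and 20 had another sign; 30 of the losses and gains came from leaving out a library. The other signs were: window coverage of Dmtn 5.22 and Tns1 −3.49 points on the annotated start, Foxn3 −11.4 and Tns1 −3.49 in windows placed by Control alone (an alternative added after seeing the data, with 152 genes higher and 1883 lower), Cdk6 1.64 after quantile normalization and −0.919 to 0.419 with 1 library left out; locus length (log2) of Dmtn 0.024 and Foxn3 0.026 with equal peak numbers, Dmtn 0.37, Foxn3 0.19 and Zzz3 0.15 after quantile normalization, and Foxn3 0.17 at the stricter threshold; the Dmtn window region 0.489 points after quantile normalization and −5.25 to 3.82 with 1 library left out; and KO2 minus KO1 length of Zzz3 0.046 after quantile normalization and −0.138 to 0.090 with 1 library left out. Only values called in the main fit could lose a call, and the 388 that kept their side include values that were never called. The cause of these changes was not tested. The unknown depth limits all coverage: a base without a peak may carry the mark below the caller's threshold.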
